A study of Mus musculus with 18 samples.

Results

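Epithelial to mesenchymal transition, the loss of cell to cell junctions with a gain of motile and matrix-making features, is steered by a small group of transcription and splicing factors. Messenger RNA of 10 of these factors was followed in a mouse prostate cancer line with and without knockdown of Rnf185: the inducers Snai1, Snai2, Twist1, Twist2, Zeb1 and Zeb2, and the epithelial factors Ovol1, Ovol2, Grhl2 and Esrp1. They were taken by symbol, matched to 1 Ensembl identifier each, from the 47643 genes of the deposited count table. Of the 10, 8 had enough counts to be tested and 2 (Ovol2 and Esrp1) did not.

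The study compared MPC3 cells carrying hairpins against Rnf185, which encodes a ubiquitin ligase of the endoplasmic reticulum membrane, with control cells, in 3 groups of 6 cultures. The control group has the treatment label Control and titles that read MPC3.plko. The other groups, shRNF185.1 and shRNF185.3, each carry a different short hairpin RNA against Rnf185 and share the treatment label RNF185 KD. No other genotype, agent or time is given for any group, and all 18 cultures share the MPC3 background. Whether each group came from 1 infected population or from clones is not given in the sources used here, so p-values measure only the spread between these cultures, which may be technical. Cultures are numbered 1 to 6 in each group, and numbers 1 and 2 are labelled batch 1, 3 and 4 batch 2, and 5 and 6 batch 3.

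Library totals ran from 22027395 to 43379662 counts. Rnf185 itself was at 33.6 to 38.4 CPM (counts scaled to the size of each library) in the control libraries, 5.21 to 6.80 CPM with shRNF185.1 and 5.19 to 6.72 CPM with shRNF185.3, so every hairpin library lay below every control library. Of 10 prostate epithelial marker genes, 6 were tested, and Hoxb13, chosen after its values were seen, stood at 56.5 ± 10.3 CPM in control (SD, n = 6). Krt5 and Pbsn, also defining genes of prostate epithelium, were at or under 0.107 CPM in every library. Immune markers (7 genes) summed to 1.84 to 5.16 CPM and endothelial markers (6 genes) to 0.163 to 1.70 CPM over all libraries. In these bulk cultures, fewer cells expressing a gene and less RNA per cell cannot be told apart.

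SNAIL (Snai1) and SLUG (Snai2) are zinc finger repressors that bind E-box sequences in the promoters of junction genes such as Cdh1. ZEB1 (Zeb1) and ZEB2 (Zeb2) carry zinc finger clusters around a homeodomain and repress many of the same promoters. TWIST1 and TWIST2 are basic helix-loop-helix proteins. On the epithelial side, OVOL1 and OVOL2 are zinc finger repressors of Zeb genes, GRHL2 activates junction genes, and ESRP1 is an RNA-binding protein that sets epithelial exon choice in transcripts such as those of Fgfr2 and Cd44.

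Because the inducers come as close paralogues, and Twist1 and Twist2 moved in opposite directions below, the coding sequences were compared first for stretches that reads of 75 bases could not separate. The window of 75 bases with the fewest mismatches in each pair is shown 5′ to 3′ from the GENCODE M21 transcripts, with positions that differ between the paralogues in capitals and positions counted from the first base of the coding sequence. Both Twist windows code for part of the basic helix-loop-helix domain.

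Twist1, coding bases 347 to 421: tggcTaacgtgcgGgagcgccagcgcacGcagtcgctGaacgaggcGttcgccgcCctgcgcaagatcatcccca

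Twist2, coding bases 209 to 283: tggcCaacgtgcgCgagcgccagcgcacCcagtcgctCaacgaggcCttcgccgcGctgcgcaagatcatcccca

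Snai1, coding bases 493 to 567: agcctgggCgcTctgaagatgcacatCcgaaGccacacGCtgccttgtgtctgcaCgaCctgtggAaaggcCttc

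Snai2, coding bases 511 to 585: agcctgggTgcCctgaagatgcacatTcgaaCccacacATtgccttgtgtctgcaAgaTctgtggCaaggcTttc

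Even in these most alike stretches the Twist genes differed at 6 of 75 bases and the Snai genes at 10 of 75. The closest windows differed at 6 bases for Zeb1 and Zeb2 and at 10 for Ovol1 and Ovol2. No exonic window of 75 bases of any of the 10 genes was shared exactly with another annotated gene (0 windows for each). Antisense genes overlap some members, and whether the counting used strand is not given in the sources used here. Gm29100 runs opposite to 46.5% of the exonic bases of Twist2, Gm31166 to 19.8% of those of Ovol1, 1700108N11Rik to 16.99% of those of Ovol2, and Zeb2os to 3.27% of those of Zeb2. Gm31166 was not among the genes of the deposited count table, and 1700108N11Rik had 0 counts in every library. All other overlaps were smaller, at 2.18% or less of the exonic bases of the factor concerned.

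Levels were compared between genes as CPM per kilobase of exon. In control cells Snai1 had the highest level of the 10 genes, at 31.5 ± 3.65 CPM per kilobase, followed by Twist2 at 23.3 ± 2.86, with overlapping libraries (SD, n = 6 here and below). Zeb1 came next at 6.35 ± 0.577 CPM per kilobase and Snai2 at 4.47 ± 0.427, each below every library of the gene above it in this order. Zeb2 at 1.59 ± 0.209 and Twist1 at 1.11 ± 0.315 CPM per kilobase overlapped. The epithelial factors lay far lower: Grhl2 was at 0.165 ± 0.0721 and Ovol1 at 0.142 ± 0.109 CPM per kilobase, and these also overlapped. The order changed at 1 place with both hairpins: Snai2 stood above Zeb1 in mean, at 8.23 ± 0.647 CPM per kilobase with shRNF185.1 and 10.5 ± 1.41 with shRNF185.3, where Zeb1, with overlapping libraries, was at 7.51 ± 0.528 and 7.58 ± 0.703.

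**Figure D1:**
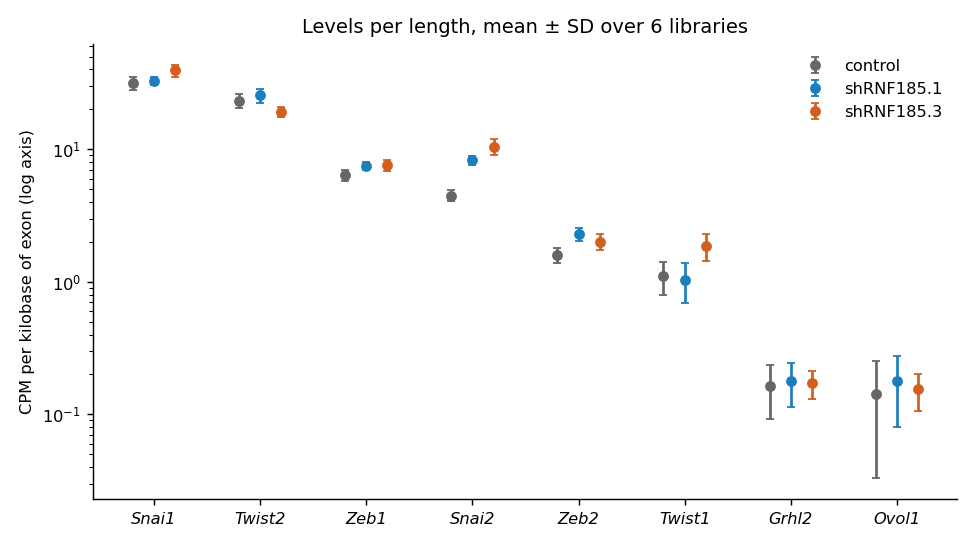
Level of 8 genes per exon length in CPM per kilobase (log axis), with points for the mean of 6 libraries and bars for the SD; Ovol2 and Esrp1, at or near 0, cannot be drawn on this axis. The inducers Snai1 and Twist2 lie highest, and Grhl2 and Ovol1 lie under 0.2 CPM per kilobase in all 3 groups.

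Esrp1 (chromosome 4, 11331933 to 11386783, minus strand of GRCm38) had 0 counts in all 18 libraries, which allows a level of up to 0.0692 to 0.136 CPM depending on the library (3 counts of its total, counting error only). Ovol2 had 1 count, in control replicate 4, and 0 in the other 17 libraries. Neither gene was detectable beyond that limit, and no comparison between groups was possible for them.

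Knockdown of Rnf185 was accompanied by more Snai2, Zeb1 and Zeb2 messenger RNA with both hairpins. With shRNF185.1, 3 of the 8 tested genes rose and 0 fell (edgeR quasi-likelihood test, Benjamini-Hochberg adjusted p under 0.05 over 14309 genes, here called). Over all genes tested, 14.6% were called higher and 14.3% lower in that comparison. With shRNF185.3, 5 of 8 rose and 1 fell, beside 14.2% higher and 13.1% lower over all genes. At an unadjusted p under 0.05 the numbers changed were again 3 and 6, as they were by DESeq2. The comparisons with control share the 6 control libraries. Of the 8 genes, 2 (Snai2 and Zeb2) had libraries that did not overlap between shRNF185.1 and control, and 1 (Snai2) between shRNF185.3 and control, while 12.8% and 13.3% of all tested genes were apart in this way. Over all genes the median log2 fold change was -0.017 and -0.019.

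Snai2 (ENSMUSG00000022676, chromosome 16, 14705852 to 14709385, plus strand) showed the largest change of the 8 genes with either hairpin. Its lowest, median and highest control libraries were at 7.66, 9.43 and 9.80 CPM, against 15.0, 16.4 and 18.4 CPM with shRNF185.1 and 15.7, 21.98 and 23.7 CPM with shRNF185.3. All 12 hairpin libraries therefore lay above all 6 control libraries. The fitted log2 fold change was 0.88 ± 0.09 (SE) with shRNF185.1, adjusted p = 7.8e-07 by edgeR, a 1.84-fold rise. With shRNF185.3 it was 1.23 ± 0.09, adjusted p = 1.81e-08, a 2.35-fold rise. Within batches 1, 2 and 3 the shRNF185.1 libraries exceeded control by 0.81, 0.89 and 0.93 in mean log2 CPM, and the shRNF185.3 libraries by 1.01, 1.33 and 1.31.

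Snai1 (ENSMUSG00000042821, chromosome 2, 167538195 to 167542814, plus strand) rose with shRNF185.3 only past the test's threshold. The control libraries had a lowest, median and highest level of 43.1, 53.3 and 56.6 CPM, those with shRNF185.1 of 47.2, 53.8 and 56.4 CPM, and those with shRNF185.3 of 54.5, 64.8 and 70.8 CPM. The shRNF185.1 libraries lay inside the control range, and 5 of 6 shRNF185.3 libraries lay above it. The log2 fold change was 0.06 ± 0.08 with shRNF185.1 (adjusted p = 0.638 by edgeR) and 0.32 ± 0.08 with shRNF185.3 (adjusted p = 0.00448). The latter call was lost without batch 3 (adjusted p = 0.0599). As a share of the summed level per length of both Snai genes, Snai1 made up 87.4 ± 2.15% in control, 79.9 ± 1.18% with shRNF185.1 and 79.0 ± 1.80% with shRNF185.3. SLUG messenger RNA thus took a larger share of the Snai total in every hairpin library, since the highest Snai1 share there was 81.6% and the lowest in control 84.6%.

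Zeb2 (ENSMUSG00000026872, chromosome 2, 44983632 to 45117395, minus strand) followed Snai2 in the size of its rise with shRNF185.1. Its lowest, median and highest levels were 26.3, 31.3 and 36.7 CPM in control, 37.5, 45.1 and 52.6 CPM with shRNF185.1, and 33.5, 40.4 and 46.5 CPM with shRNF185.3. No shRNF185.1 library overlapped the control range, and 4 of 6 shRNF185.3 libraries exceeded it. Fitted log2 fold changes were 0.53 ± 0.10 with shRNF185.1 (adjusted p = 0.000572 by edgeR) and 0.34 ± 0.10 with shRNF185.3 (adjusted p = 0.0173). The call with shRNF185.3 was lost without batch 1 or batch 3 (adjusted p = 0.0816 and 0.106). Its antisense neighbour Zeb2os moved the same way, from 1.75 ± 0.152 CPM in control to 2.33 ± 0.368 with shRNF185.1 (adjusted p = 0.00839) and 2.0 ± 0.170 with shRNF185.3 (adjusted p = 0.210). Its part in the Zeb2 value was not tested, and Zeb2os reached at most 2.74 CPM in any library.

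Zeb1 (ENSMUSG00000024238, chromosome 18, 5591860 to 5775467, plus strand) rose by a smaller and nearly equal amount with both hairpins. The lowest, median and highest libraries were at 58.8, 64.7 and 75.3 CPM in control, 70.1, 77.0 and 84.4 CPM with shRNF185.1, and 71.0, 75.3 and 88.2 CPM with shRNF185.3. The groups overlapped, and 4 and 3 hairpin libraries lay above every control library. The log2 fold change was 0.24 ± 0.07 with shRNF185.1 (adjusted p = 0.0118 by edgeR) and 0.26 ± 0.07 with shRNF185.3 (adjusted p = 0.00832). The call with shRNF185.1 was lost without batch 1 or batch 3 (adjusted p = 0.0645 and 0.0989), and that with shRNF185.3 without batch 2 or batch 3 (0.0556 and 0.123).

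Twist1 and Twist2 moved apart with shRNF185.3. Twist1 (ENSMUSG00000035799, chromosome 12, 33957671 to 33959829, plus strand) stood at a lowest, median and highest level of 1.17, 1.80 and 2.62 CPM in control, 1.06, 1.53 and 2.66 CPM with shRNF185.1, and 1.99, 3.20 and 3.97 CPM with shRNF185.3. Only the shRNF185.3 group lay mostly above control, with 4 of 6 libraries over the highest control library, at 30 to 112 counts per library over all groups. Its log2 fold change was -0.11 ± 0.22 with shRNF185.1 (adjusted p = 0.747 by edgeR) and 0.75 ± 0.22 with shRNF185.3 (adjusted p = 0.0146). The latter call was lost without batch 1 (adjusted p = 0.191).

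Twist2 (ENSMUSG00000007805, chromosome 1, 91801461 to 91848028, plus strand) was the single tested inducer that fell with a hairpin. The lowest, median and highest levels were 63.9, 73.9 and 87.9 CPM in control, 68.2, 84.9 and 90.2 CPM with shRNF185.1, and 52.9, 61.9 and 67.0 CPM with shRNF185.3. The last group overlapped the low end of control, with 4 of 6 libraries below every control library. The log2 fold change was 0.13 ± 0.09 with shRNF185.1 (adjusted p = 0.274 by edgeR) and -0.27 ± 0.09 with shRNF185.3 (adjusted p = 0.0269). That call was lost without control replicate 1, 2 or 6, without shRNF185.3 replicate 1 or 3, and without batch 1 or batch 3 (adjusted p from 0.0505 to 0.205). The antisense gene Gm29100 was at 3.55 ± 0.360, 3.21 ± 0.300 and 3.24 ± 0.527 CPM in the 3 groups and was not called with either hairpin (adjusted p = 0.324 and 0.412). Twist1 made up 4.54 ± 1.22% of the summed Twist level per length in control, 3.88 ± 1.04% with shRNF185.1 and 8.87 ± 1.84% with shRNF185.3, so Twist2 remained the main Twist transcript in every library.

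**Figure D2:**
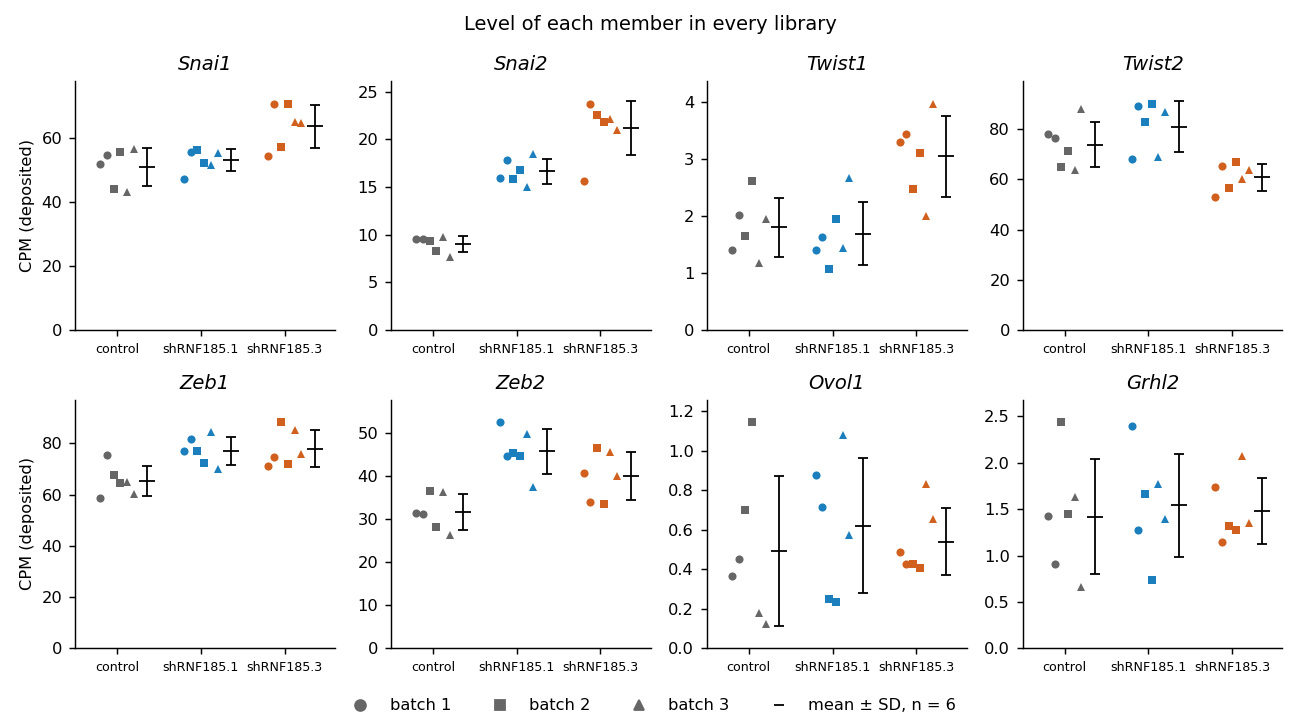
Deposited CPM of 8 genes in each of 18 libraries, by group on the x axis and with the marker shape giving the batch; the black bar is the mean ± SD of 6 libraries, and each panel has its own y axis from 0. All hairpin libraries lie above all control libraries for Snai2, while Ovol1 and Grhl2 overlap in all groups.

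Ovol1 and Grhl2, the epithelial factors with enough counts, did not pass the test in any comparison over all libraries. Without batch 2, however, Ovol1 was called higher with shRNF185.1 (1.53, adjusted p = 0.00643 by edgeR), with shRNF185.3 (1.09, adjusted p = 0.0499) and over both hairpins (1.31, adjusted p = 0.00844). Ovol1 (ENSMUSG00000024922, chromosome 19, 5549136 to 5560646, minus strand) ranged from 0.126 to 1.14 CPM in control, 0.233 to 1.08 CPM with shRNF185.1 and 0.404 to 0.831 CPM with shRNF185.3, on 4 to 49 counts per library. Grhl2 (ENSMUSG00000022286, chromosome 15, 37233036 to 37363569, plus strand) ranged from 0.659 to 2.44, 0.737 to 2.40 and 1.14 to 2.08 CPM. For both genes the groups overlapped fully. The 95% interval of the log2 fold change ran from -0.58 to 1.15 for Ovol1 and from -0.42 to 0.68 for Grhl2 with shRNF185.1, and from -0.82 to 0.96 and -0.48 to 0.62 with shRNF185.3, so changes of moderate size in either direction were not detectable here. Within batch 2, Ovol1 was lower with the hairpins (differences of -1.64 and -0.998), and within batches 1 and 3 higher (0.86 and 1.96 with shRNF185.1, 0.15 and 1.87 with shRNF185.3).

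**Figure D3:**
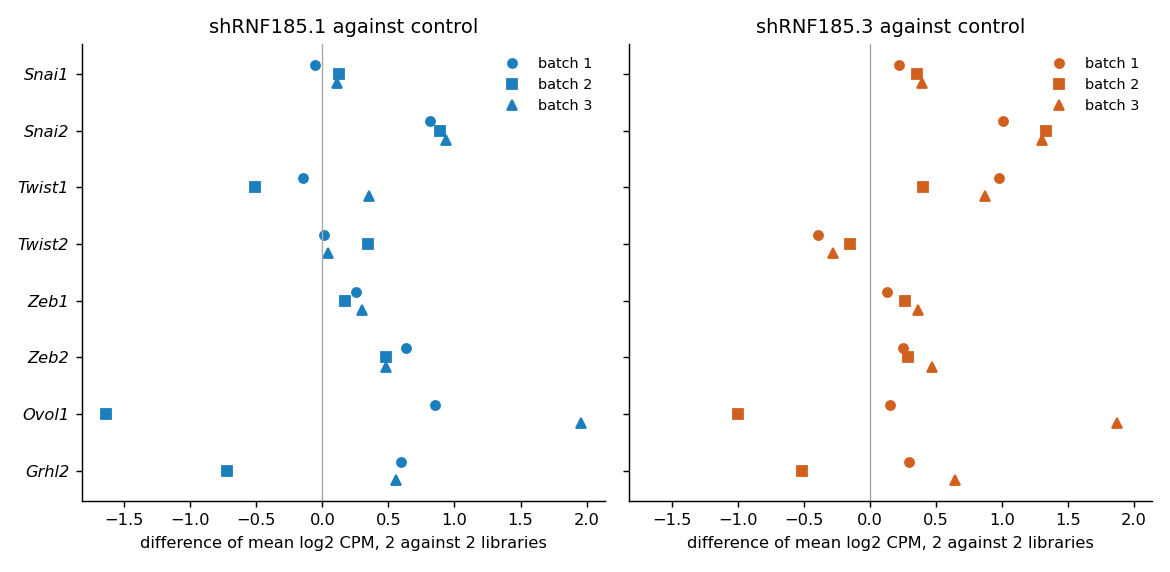
Difference of mean log2 CPM from control within each batch (2 against 2 libraries), for shRNF185.1 at left and shRNF185.3 at right, with the marker shape giving the batch. The 3 batches agree in sign for Snai2, Zeb1 and Zeb2 with both hairpins, while Ovol1 and Grhl2 are negative in batch 2 and positive in batches 1 and 3.

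Averaged over both hairpins, 4 of the 8 genes rose (Snai1, Snai2, Zeb1 and Zeb2) and 0 fell by the edgeR test, beside 16.1% called higher and 16.8% lower over all genes. The mean log2 fold changes were 1.06 ± 0.08 for Snai2, 0.44 ± 0.09 for Zeb2, 0.25 ± 0.06 for Zeb1 and 0.19 ± 0.07 for Snai1. The Snai1 value, with an adjusted p of 0.0400, lost its call in 16 of 33 alternatives, among them leaving out control replicate 1, 3 or 5, shRNF185.1 replicate 2, 3 or 6, or shRNF185.3 replicate 2, 4, 5 or 6. It was also lost with batch as a covariate (adjusted p = 0.0628 by edgeR). Twist1 (0.32 ± 0.19, adjusted p = 0.220) and Twist2 (-0.07 ± 0.08, adjusted p = 0.519), which differed between the hairpins, were not called in the average. No tested factor fell in it, also at an unadjusted p under 0.05 (4 genes, all higher) and by DESeq2 (4 called).

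A direct comparison of the hairpin groups was made as well, between which Rnf185 itself was not called different (log2 difference -0.00083 ± 0.08, 95% interval -0.15 to 0.15). Of the 8 genes, 3 were higher (Snai1, Snai2 and Twist1) and 1 lower (Twist2) with shRNF185.3 than with shRNF185.1, beside 7.72% called higher and 6.94% called lower over all genes. The log2 difference was 0.86 ± 0.22 for Twist1 (adjusted p = 0.0116 by edgeR), 0.35 ± 0.09 for Snai2 (0.0102), 0.27 ± 0.08 for Snai1 (0.0260) and -0.41 ± 0.09 for Twist2 (0.00353). Twist2 was the 1 gene of the 8 whose libraries did not overlap between the hairpins, as did 8.25% of all tested genes. Zeb1 (0.02 ± 0.07, 95% interval -0.12 to 0.15) and Zeb2 (-0.19 ± 0.10, interval -0.39 to 0.01) were not called. The Snai1 call was lost without shRNF185.1 replicate 1 or 4 or without shRNF185.3 replicate 2 or 4 (adjusted p from 0.0558 to 0.0681). With a batch left out the number of calls fell from 4 to between 0 and 2.

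**Figure D4:**
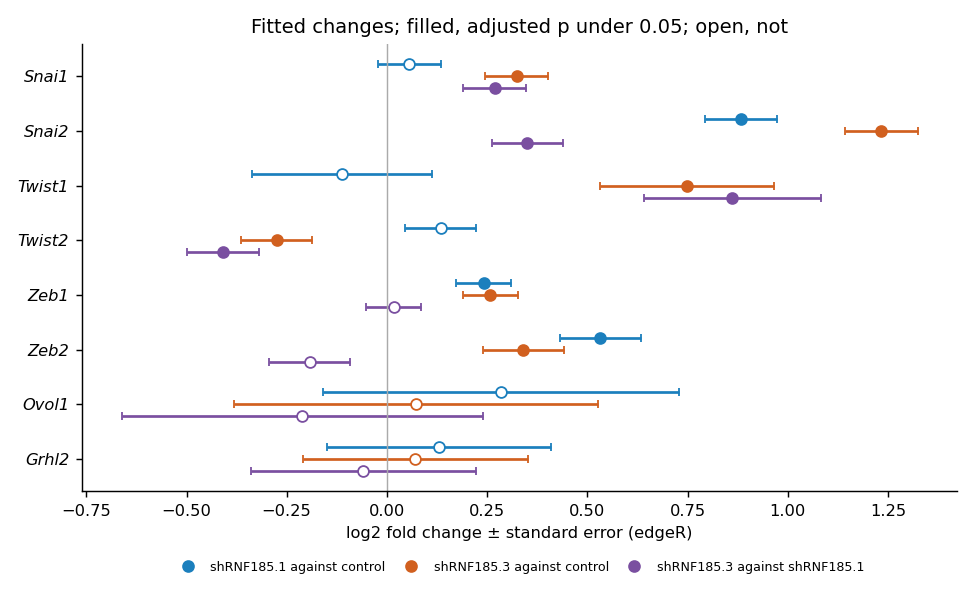
Fitted log2 fold change ± standard error of 8 genes (edgeR) for each hairpin against control and for shRNF185.3 against shRNF185.1; filled points had an adjusted p under 0.05. Snai2 reaches 1.23 with shRNF185.3, and Twist2 is the only gene with a filled point below 0.

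Other inducers of the transition gave a mixed picture. Of 14 tested of 15 listed, 4 rose and 3 fell with each hairpin, with a median log2 fold change of -0.12 with shRNF185.1 and -0.01 with shRNF185.3. Among all genes, 14.6% rose and 14.3% fell with shRNF185.1, and 14.2% rose and 13.1% fell with shRNF185.3. Prrx1, a homeobox inducer, was at 256 ± 26.5 CPM in control, 366 ± 30.7 with shRNF185.1 and 375 ± 35.7 with shRNF185.3 (log2 fold changes 0.52 and 0.56 by edgeR, adjusted p = 3.85e-05 and 1.87e-05), with every hairpin library above every control library. Lef1, a partner of beta-catenin, rose from 0.761 ± 0.201 CPM to 1.22 ± 0.251 and 1.33 ± 0.178 CPM. Klf8, a repressor of Cdh1, fell from 0.804 ± 0.135 CPM to 0.489 ± 0.154 and 0.391 ± 0.147 CPM. With shRNF185.1 the Klf8 call was lost without control replicate 5, without shRNF185.1 replicate 1, 5 or 6 and without any 1 batch, and Lef1 lost its call without batch 3 with either hairpin and without batch 1 with shRNF185.1. The number called lower fell to 1 with 4 of the single libraries left out for shRNF185.1 (those named for Klf8) and with control replicate 3 or shRNF185.3 replicate 1, 2 or 4 left out for shRNF185.3, and the number called higher with shRNF185.1 fell to 2 without batch 1 or batch 3.

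Other epithelial factors did not move as a group either. Of 12 tested of 16 listed, 4 rose and 2 fell with shRNF185.1, beside 14.6% and 14.3% of all genes. With shRNF185.3, 4 rose and 3 fell, beside 14.2% and 13.1%. The medians of the list were 0.15 and 0.07. Esrp2, the paralogue of Esrp1 and the sole detected Esrp gene, was at 5.75 ± 1.25 CPM in control, 3.57 ± 0.612 with shRNF185.1 and 2.89 ± 0.547 with shRNF185.3 (log2 fold changes -0.69 and -0.99, adjusted p = 0.00224 and 0.000103). The shRNF185.3 libraries lay below every control library, and those with shRNF185.1 overlapped control. Klf5, a basal epithelial factor, also fell (-0.51 and -0.69). Elf3, an epithelial ETS factor, rose from 12.2 ± 0.792 CPM to 21.7 ± 0.925 and 23.9 ± 1.63 CPM, and Trp63, the p63 gene of basal epithelium, rose from 2.78 ± 0.696 to 4.32 ± 1.1 and 4.68 ± 1.19 CPM. Elf3 libraries did not overlap between control and either hairpin. Trp63 lost its call with shRNF185.1 without shRNF185.1 replicate 1, batch 1 or batch 3, and with shRNF185.3 without batch 2, and Esrp2 lost its call with shRNF185.1 without batch 1. The number called higher with shRNF185.1 was 2 without batch 1 or batch 3.

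Genes that the SNAIL and ZEB proteins are known to repress moved in 1 direction where they were called. Of 27 listed epithelial targets, 11 had too few counts to test, among them Epcam, Cldn7 and Crb3. Of the 16 tested, 7 fell and 0 rose with shRNF185.1 by edgeR, beside 14.3% lower and 14.6% higher over all genes. With shRNF185.3, 9 fell and 0 rose, beside 13.1% and 14.2%. The medians of the targets were -0.32 and -0.57. At an unadjusted p under 0.05, 0 rose and 9 and 11 fell, and DESeq2 also called 0 higher. Without batch 2, Krt19 and Muc1 (named after their values were seen) were called higher with shRNF185.1, and without control replicate 3 Muc1 was. The 16 are only those that passed the count filter, so this is no count over all targets.

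Cdh1, which encodes E-cadherin, the core adhesion protein of epithelial junctions, fell most among them. Its lowest, median and highest control libraries were at 24.2, 31.2 and 57.7 CPM, against 5.83, 8.85 and 13.9 CPM with shRNF185.1 and 5.63, 7.69 and 10.5 CPM with shRNF185.3. Every hairpin library lay below every control library, although the controls spread widely. The odd-numbered controls were at 40.9, 57.7 and 35.2 CPM and the even-numbered ones at 27.2, 25.1 and 24.2 CPM, a split noticed in the data. The log2 fold change was -1.91 ± 0.25 (adjusted p = 1.37e-05 by edgeR) and -2.13 ± 0.25 (adjusted p = 4.85e-06). Dsp, which encodes the desmosome protein desmoplakin, fell by 1.44 and 1.93 on the log2 scale, from 1.70 ± 0.876 CPM, and the former call was lost without batch 1. Krt18, a keratin of luminal epithelium that the naming rule takes from the prostate marker list, went from 354 ± 27.6 CPM to 177 ± 12.3 and 149 ± 2.97 CPM, and its partner Krt8 also fell (-0.53 and -0.52). The 10 prostate epithelial markers, which include both keratins, summed to 1530 to 1829 CPM in control, 1015 to 1299 CPM with shRNF185.1 and 1072 to 1154 CPM with shRNF185.3, and their part in these falls was not tested. Of the 6 tested markers, 2 rose and 3 fell with shRNF185.1, beside 14.6% and 14.3% of all genes. With shRNF185.3, 1 rose and 2 fell, beside 14.2% and 13.1%. The marker medians were -0.16 and -0.18, and Trp63 is the marker that rose with both hairpins.

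Cldn3 and Cldn4, claudins of the tight junction named here after their values were seen, differed between the hairpins. Cldn3 was at 2.63 ± 1.05 CPM in control, 2.65 ± 0.991 with shRNF185.1 and 0.984 ± 0.278 with shRNF185.3, and Cldn4 at 1.45 ± 0.568, 1.48 ± 0.647 and 0.413 ± 0.191 CPM. Against control, both were called with shRNF185.3 only (-1.41 and -1.82). Between the hairpins, 4 of the 16 targets were called lower and 0 higher with shRNF185.3 by edgeR (4 and 0 at an unadjusted p under 0.05). Of all genes, 6.94% were called lower and 7.72% higher in that comparison.

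Mesenchymal genes rose in part. Of 22 tested of 22 listed, 11 rose and 2 fell with shRNF185.1, beside 14.6% and 14.3% of all genes. With shRNF185.3, 11 rose and 0 fell, beside 14.2% and 13.1%. The medians of the list were 0.36 and 0.41. With shRNF185.3, 0 were also lower by edgeR at an unadjusted p under 0.05 and by DESeq2. Between the hairpins, 8 of the 22 were called higher and 2 lower with shRNF185.3, beside 7.72% and 6.94% of all genes. The median log2 difference of the list was 0.25. Col1a1, a chain of type I collagen, went from 80.0 ± 25.5 CPM to 196 ± 87.8 and 365 ± 126 CPM (log2 fold changes 1.29 and 2.19), and Col5a2 rose from 0.813 ± 0.384 to 1.77 ± 0.703 and 2.63 ± 0.718 CPM. Without batch 1, the number called higher was 6 with shRNF185.1 and 7 with shRNF185.3, and Col5a2 was not called with shRNF185.1 without batch 1 or batch 3. The number called lower with shRNF185.1 was 1 in 19 of 34 alternatives, 12 of which left out a single library. Vim, which encodes the intermediate filament vimentin and was looked at after its values were seen, was at 3201 ± 348 CPM in control, 3349 ± 162 with shRNF185.1 and 3354 ± 181 with shRNF185.3, and was not called (adjusted p = 0.486 and 0.454). Cdh2, the N-cadherin gene, likewise looked at after its values were seen, was also not called (-0.08 and -0.19). Of 8 fibroblast markers, 5 were tested and Lum, Thy1 and Fap stayed at or under 0.665 CPM. Of these 5 markers, 2 rose and 2 fell with shRNF185.1, beside 14.6% and 14.3% of all genes. With shRNF185.3, 4 rose and 0 fell, beside 14.2% and 13.1%. The marker medians were -0.00055 and 0.55. Between the hairpins, 5 were called higher and 0 lower with shRNF185.3, beside 7.72% and 6.94% of all genes. The 8 markers summed to 648 to 776 CPM in control, 599 to 945 CPM with shRNF185.1 and 1049.5 to 1551 CPM with shRNF185.3, where Col1a1 and Col1a2 stand in both lists. Col1a2, named after its values were seen, moved in opposite directions, from 374 ± 28.8 CPM to 254 ± 62.4 with shRNF185.1 and 545 ± 76.5 with shRNF185.3 (-0.56 and 0.55, adjusted p = 0.00306 and 0.00379 by edgeR). Their part in the mesenchymal counts was not tested.

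Co-repressors that the SNAIL, TWIST and ZEB proteins recruit had small median changes, and the few that edgeR called over all libraries were lower. Of 18 co-repressor genes 3 fell with shRNF185.1 and 5 with shRNF185.3, and 0 rose by edgeR (0 and 2 at an unadjusted p under 0.05, and 0 and 1 by DESeq2). Over all genes 14.3% and 13.1% were called lower, and 14.6% and 14.2% higher. The median log2 fold changes of the list were -0.06 and -0.05, beside -0.017 and -0.019 over all genes. Kdm1a, the histone demethylase LSD1 that SNAIL recruits, went from 98.0 ± 2.37 CPM to 85.5 ± 2.17 and 89.0 ± 2.08 CPM, and Suz12, a Polycomb subunit, from 134 ± 16.7 to 99.5 ± 5.01 and 114 ± 8.68 CPM. Suz12 with shRNF185.3 (adjusted p = 0.0253) lost its call without control replicate 5, without shRNF185.3 replicate 4, 5 or 6, and without batch 1 or batch 3, and with the replicate numbers as a block (0.0597). Kdm1a with shRNF185.3 lost it without batch 1. With shRNF185.3 the number called lower was 0 without batch 1, 2 without batch 3 and 3 without shRNF185.3 replicate 4, and 1 or 2 were called higher without control replicate 4 or 6 or shRNF185.3 replicate 3.

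SNAIL and TWIST proteins are short-lived, and their stability is set by kinases, ubiquitin ligases and deubiquitinases. Of 16 tested of 17 such genes, 3 rose and 2 fell with shRNF185.1, and 3 rose and 3 fell with shRNF185.3, with medians of 0.06 and -0.01. With these hairpins 14.6% and 14.2% of all genes were called higher, and 14.3% and 13.1% lower. The number of the list called higher with shRNF185.1 was 2 in 11 of 34 alternatives, 6 of which left out a single library. Lats2, a Hippo pathway kinase, rose from 31.8 ± 1.83 CPM to 42.9 ± 3.68 and 42.0 ± 1.68 CPM, and Csnk1e, a casein kinase, from 85.5 ± 4.99 to 97.5 ± 5.59 and 100.5 ± 3.88 CPM. Fbxo45, a ubiquitin ligase subunit that targets these factors, went from 32.2 ± 2.77 CPM to 27.1 ± 0.811 and 24.7 ± 2.03 CPM. With shRNF185.3 the number called lower was 1 without control replicate 6, shRNF185.3 replicate 4 or 5, batch 1 or batch 3. Csnk1e lost its call with shRNF185.1 without batch 2, and with both hairpins under an offset for GC content and length, and Fbxo45 lost its call with shRNF185.1 without batch 1 or batch 3. Protein levels were not measured here.

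Upstream, genes of the TGF-beta pathway, a classical inducer of Snai and Zeb transcription, moved both ways. Of 14 tested, 6 rose and 3 fell with shRNF185.1, beside 14.6% and 14.3% of all genes. With shRNF185.3, 5 rose and 2 fell, beside 14.2% and 13.1%. The medians of the list were 0.08 and 0.03. With shRNF185.1 the number called higher was 4 in 11 of 34 alternatives, 6 of which left out a single library. The number called lower with that hairpin was 2 in 17 of 34. Tgfb2, a ligand, went from 11.0 ± 1.52 CPM to 17.1 ± 2.3 and 18.2 ± 2.09 CPM, and Tgfbr3, the co-receptor betaglycan, from 55.1 ± 6.25 to 86.2 ± 13.7 and 80.2 ± 12.0 CPM. Smad2, a signal carrier of the pathway, went from 54.4 ± 3.09 to 48.8 ± 2.27 and 48.7 ± 3.17 CPM (adjusted p = 0.0248 and 0.0252). The Smad2 calls were lost without control replicate 2 or 5, without shRNF185.1 replicate 1, 2 or 6 for that hairpin, without shRNF185.3 replicate 1, 4, 5 or 6 for the other, and without batch 1 or batch 3 for both; in nearly all of these fits 1 gene of the list was called lower.

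On the splicing side, 18 regulators that act with or against the ESRP proteins were tested. By edgeR 0 rose and 2 fell with shRNF185.1, beside 14.6% and 14.3% of all genes. With shRNF185.3, 1 rose and 0 fell, beside 14.2% and 13.1%. At an unadjusted p under 0.05 the counts in the list were 0 and 5, and 1 and 3, and DESeq2 called 2 lower with shRNF185.3. Leaving out control replicate 4 gave 4 lower with shRNF185.1 and 2 with shRNF185.3, leaving out shRNF185.1 replicate 4 gave 4 with that hairpin, and leaving out control replicate 3 or shRNF185.3 replicate 3 gave 1 and 2 with shRNF185.3. Without control replicate 5, 1 and 2 were called higher. Of 12 genes whose transcripts ESRP1 is known to splice, 4 rose and 1 fell with shRNF185.1, beside 14.6% and 14.3% of all genes. With shRNF185.3, 2 rose and 2 fell, beside 14.2% and 13.1%. The number of these genes called higher with shRNF185.1 was 3 in 13 of 34 alternatives, 7 of which left out a single library. Fgfr2, a fibroblast growth factor receptor, rose from 0.742 ± 0.186 CPM to 1.42 ± 0.320 and 1.72 ± 0.411 CPM, Enah, an actin regulator, from 230 ± 28.9 to 316 ± 23.7 and 338 ± 25.2 CPM, and the kinase gene Slk fell from 239 ± 23.1 to 199 ± 15.9 and 174 ± 13.6 CPM. The Slk call with shRNF185.1 was lost without batch 1 or batch 3. These are totals per gene, and isoforms were not analysed here.

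For the genes that rose with both hairpins, the 3 most alike patterns over the 18 libraries were sought among 14309 genes, by the root mean square difference of log2 CPM after centring each gene. Nearest to Snai2 were Elf3 (0.166), C1qtnf6 (0.167) and Sardh (0.180), where Snai2's own spread about its mean was 0.534. C1qtnf6 went from 39.1 ± 2.92 CPM to 67.4 ± 3.40 and 86.9 ± 8.07 CPM, and Sardh from 24.1 ± 1.64 to 43.8 ± 3.38 and 47.0 ± 3.90 CPM. Nearest to Zeb2 were Trim56 (0.0891), Dcun1d3 (0.10) and Dip2c (0.103), against an own spread of 0.279. Nearest to Zeb1 were Magi3 (0.0776), Ptprk (0.0792) and Stard13 (0.0816), against an own spread of 0.162. No gene of the set was among the nearest 3 of another.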

How the data were processed

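The 18 libraries are single-end reads of polyadenylated RNA from a directional kit, per the labels' protocols. The submitters' processing notes name cutadapt 2.3, STAR 2.7.0d, RSEM 1.3.1 and mm10, with no roles. The authors deposited a table of expected counts and a table of CPM, a scaled signal whose columns sum to 969986 to 1026394, and per the labels both are named for ComBat-Seq, a batch adjustment. Whether it was told the groups, and could thereby alter differences between them, is not given in the sources used here. Of the deposited count values 0.466% were not whole and were rounded, though none of the 10 genes had such a value. The CPM table holds 15386 genes and 8 of the 10; for the others, counts were divided by the same library constant.

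The filter filterByExpr, set to 10 counts, left 14309 genes (99.9% of counts), which were scaled by TMM and tested in edgeR 4.0.16 (R 4.3.3) with a mean per group over all 18 libraries. This fit had no term for batch. With batch as a covariate, 3559 genes were called with shRNF185.1 against control, where the main fit called 4141. P-values were adjusted by Benjamini-Hochberg over all genes tested, at a threshold of 0.05. The test was also run on simulated counts. Those were independent between libraries and had no batch adjustment, so they do not give its error rate on the deposited counts. The SE is the absolute fold change over the square root of F, and intervals from the SE. Alternatives used DESeq2 1.42.0, limma 3.58.1, other filters, covariates and left-out libraries. The design assumed whole counts and kept its test. Genes named are the 10, Rnf185, the 2 highest and 2 lowest per list by mean fold change among those called alike with both hairpins, and the 3 most alike genes. Other genes, among them cell type markers, untested list members and antisense neighbours, were named after their values were seen. The genes and lists were chosen with earlier results of these data known, so their counts are descriptions. Positions are from GENCODE M21 on GRCm38, matched by identifier, and 99.1% of identifiers had a symbol. Totals set the counting floor given, and reads carry no molecular identifiers.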

Additional observations from a re-analysis of the deposited data

Results flagged for a closer look

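The shRNF185.3 replicate 1 library held less Snai2 than the other 5 of its group: its log2 CPM was 3.982, with the next at 4.39, a gap of 0.697 of the group's range against a limit of 0.625 for 6 samples. In 24 groups of 6 checked, chance alone flags about 1.2. That library still lay above every control library.

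Because each hairpin is compared with the same control, their direct difference was tested, and 4 of the inducers differed. The log2 difference of shRNF185.3 from shRNF185.1 was 0.2688 for Snai1, 0.3505 for Snai2, 0.8612 for Twist1 and -0.4089 for Twist2. Each had the same sign in all 3 batches. Rnf185 was at 5.81 ± 0.582 and 5.80 ± 0.546 CPM (SD, n = 6) in the hairpin groups beside these differences.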

How the results depend on the processing

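Snai2 was called higher with each hairpin in all 34 alternatives, and Zeb2 with shRNF185.1 likewise. Leaving out a batch moved the number of members called. With shRNF185.3 against control it was 3 without batch 1 and 2 without batch 3, against 6, and over both hairpins 2 without batch 3, against 4. Between the hairpins it was 1, 0 and 2 without batch 1, 2 and 3, against 4; where edgeR called 0, 4 passed at an unadjusted p under 0.05, and DESeq2 on all libraries called 4. These fits have fewer samples. Leaving out 1 library gave 3 to 3, 5 to 6, 3 to 4 and 3 to 4 members in the 4 comparisons. Replicate numbers are shared by the groups, and the deviations of same-numbered libraries correlated with a mean r of -0.0144 (from -0.628 to 0.705, over 18 pairs and 9671 genes). The mean r was -0.434 for other numbers of the same batch and 0.111 for libraries of other batches. Since not every same-numbered pair was above 0.1, the numbers were not taken to pair the libraries in the main fit. That rule does not show the numbers to be unrelated, as same-numbered libraries correlated more than other numbers of the same batch. With the replicate block the counts were 3, 6, 4 and 4.

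Signs reversed only for log2 fold changes that had missed the threshold. Without batch 1 these were Ovol1 (-0.065) and Grhl2 (-0.13) with shRNF185.1, Grhl2 with shRNF185.3 (-0.027), both over both hairpins (-0.00849 and -0.080) and both between the hairpins (0.11 and 0.11). Without batch 2 they were Twist1 with shRNF185.1 (0.11) and Zeb1 between the hairpins (-0.032). Without batch 3 they were Ovol1 (-0.39) and Grhl2 (-0.021) with shRNF185.1, Ovol1 (-0.64) and Grhl2 (-0.18) with shRNF185.3, both over both hairpins (-0.51 and -0.099), and Zeb1 between the hairpins (-0.00746). Without batch 2, Ovol1 was called higher (1.53, 1.09 and 1.31 with shRNF185.1, with shRNF185.3 and over both); the cause was not tested. Leaving out 1 library gave -0.28 to 0.035 for Twist1 with shRNF185.1; -0.039 to 0.34, -0.078 to 0.28, -0.048 to 0.31 and -0.20 to 0.11 for Grhl2 in the 4 comparisons; -0.13 to 0.58, -0.023 to 0.69 and -0.38 to 0.013 for Ovol1 with shRNF185.3, over both hairpins and between them; and -0.023 to 0.044 for Zeb1 between the hairpins. Alternatives chosen after seeing the data were an offset for GC content and length, under which Zeb2 was called lower with shRNF185.3 than with shRNF185.1 (-0.23, adjusted p = 0.0126), and odd or even number with batch, under which the counts were 3, 6, 4 and 4. Depth limits Twist1, Ovol1 and Grhl2 most, at 4 to 112 counts per library.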

Other observations

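Within each group and batch there is an odd-numbered and an even-numbered library, 9 such pairs in all, and several of these factors differed between them in a set direction. Twist1 was lower in the odd-numbered library in 9 of 9 pairs (mean log2 difference, odd minus even, -0.56, from -0.96 to -0.054). Twist2 was lower in 8 of 9 (-0.22) and Snai1 in 7 of 9 (-0.19). In the other direction, Grhl2 was higher in the odd-numbered library in 9 of 9 pairs (0.68) and Zeb2 in 9 of 9 (0.27), and Ovol1 in 7 of 9 (0.13). Zeb1 was higher in the odd-numbered library in 6 of 9 pairs and Snai2 in 5 of 9. Over all 14309 genes tested, 5.47% were higher in the odd-numbered library in all 9 pairs and 4.88% in the even-numbered one. The labels give the numbers no meaning beyond the batch, this split was noticed in the data, and no test was made of it. For Snai1, Twist1, Twist2 and Grhl2 with shRNF185.1, the mean difference within these pairs is larger in size than the fitted difference from control. The same holds for Ovol1 and Grhl2 with shRNF185.3.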
